A study of Homo sapiens with 16 samples.

Results

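The genes described here encode 10 proteins found along the route of internalised cargo through the endosomes and lysosomes of an epithelial cell: HGS, STAM, STAM2, EEA1, RAB5A, RAB11A, LAMP1, LAMP2, TFRC and MYO6. They were chosen by name, as every non-control probe whose gene name on the array equals one of these symbols, because the gliadin peptide p31-43 has been linked to the handling of endocytic vesicles. The rule found 20 probes, all of them among the 40982 probes tested, which carry 30971 distinct gene names. HGS had 4 probes, STAM and TFRC had 1 each, and the other 7 genes had 2 each. A gene with several probes is led here by its brightest one.

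The cells were undifferentiated Caco-2 cells, a line derived from a human colorectal tumour and widely used as a model of the gut epithelium. Cells of 1 line were kept for 6 h in low-serum medium, and every group had 4 arrays. MED-CTL cells received the medium alone. The p31-43 group received the synthetic peptide, a stretch of wheat gliadin, at 150 µg/ml. PT-G cells received gliadin digested with pepsin and trypsin, and PT cells received the same enzyme digest without any substrate; their doses were not given in the sources used here. The enzymes in PT and PT-G had been inactivated by heat, and cells of all 4 groups were detached with trypsin before RNA extraction. Total RNA was hybridised on one-colour human arrays, 1 sample an array, and values below are log2 of the median spot intensity after quantile normalisation, so that 1 unit is a 2-fold difference. The 16 arrays came from 4 experiments with cells a few passages apart, taken here as runs 1 to 4 from the dates in the array names; each run holds 1 array of every condition.

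Cargo that enters a cell by clathrin-coated vesicles reaches the early endosome, where RAB5A, a small GTPase, and EEA1, its tethering effector, drive membrane fusion. HGS (also called Hrs) pairs with STAM or STAM2 to form ESCRT-0, the complex that binds ubiquitinated receptors such as the EGF receptor and commits them to the lysosome, whose membrane is rich in LAMP1 and LAMP2. Receptors that escape this route, with the transferrin receptor (TFRC) as the classic example, return to the surface through recycling endosomes marked by RAB11A, and MYO6, a myosin that walks towards the minus end of actin filaments, moves newly formed vesicles inward.

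The median intensity of the arrays lay between 153 and 410 over a local background of 48 to 65, and 27660 to 33947 spots an array were well above background. All 20 probes of the endosomal genes were well above background on all 16 arrays, and none of their spots was marked as an outlier. The epithelial markers KRT19, KRT18, KRT8, EPCAM, CDH1 and VIL1 were bright, with means of 15.97 to 18.11, and 10 of the 12 epithelial and intestinal markers gave signal on every array. The others on the list were dimmer: CDX2 at 10.25, HNF4A at 8.15, KRT20 at 8.07, LGALS4 at 7.19, GPA33 at 6.59 and CDX1 at 6.12. GPA33 gave signal on 15 arrays and CDX1 on 1. Of the 16 markers of other cell types, 12 also gave signal on every array, with means of 6.68 to 14.81, and 4 on 0 arrays. The 12 were TUBB3, VIM, THY1, PDGFRB, COL1A1 and COL3A1 of neural or stromal cells, CD14, CD3E and ITGAM of leukocytes, PECAM1 and VWF of endothelium, and CHGA. Those on 0 arrays included PTPRC of leukocytes, CDH5 of endothelium and COL1A2 of fibroblasts. Of the 16, CHGA, an endocrine marker, was the only one with a nominal p under 0.01 against MED-CTL in any treatment, with a difference of -0.44 under p31-43 (adjusted p = 1 in limma). Of the 12 epithelial and intestinal markers, KRT20, a keratin of maturing enterocytes, was the only one with a nominal p under 0.01, at 0.50 ± 0.12 under PT (adjusted p = 0.0884) and 0.63 ± 0.12 under PT-G (adjusted p = 0.0251). The part of these markers in the results was not tested. The array PT replicate 3 stood apart from its run. Its deviations from the group mean correlated at -0.0054 to 0.15 with those of the other arrays of run 3, which correlated with each other at 0.65 to 0.86, and at 0.13 to 0.55 with the arrays of run 4. The 0.55 was with p31-43 replicate 4, which lay on the same slide (slide 5, scan day 3). The other arrays of run 3 lay on slide 3 (scan day 2). PT replicate 3 also had the highest median intensity (410) and local background (65) of the 16 arrays. The part of slide and scan was not tested. Without PT replicate 3, 1202 of all probes passed a nominal p under 0.01 in PT against MED-CTL, from 1491.

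**Figure D1:**
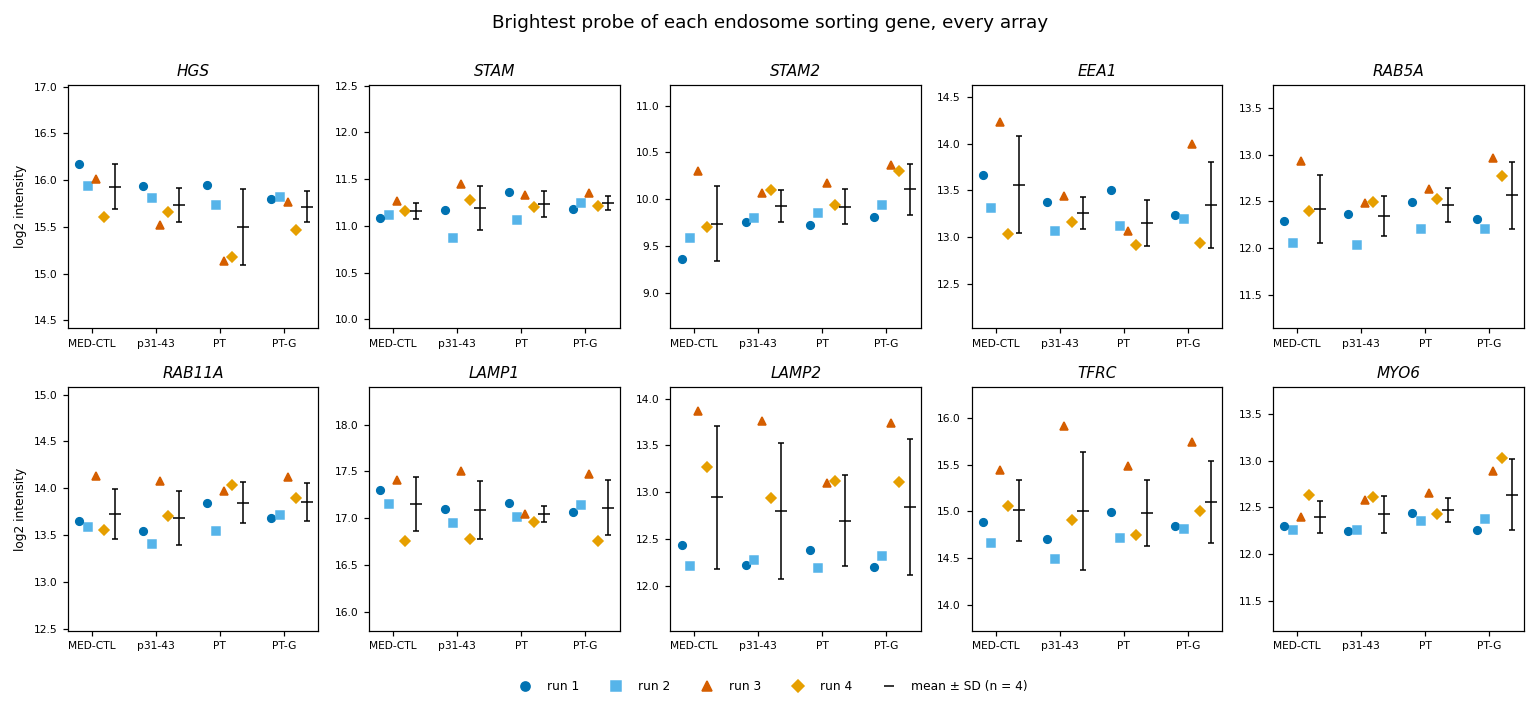
Normalised log2 intensity of the brightest probe of each of the 10 genes on every array, by condition (x axis), with symbols for the 4 runs and the group mean ± SD (n = 4) as a black bar; every panel spans the same range of log2 units. The conditions overlap in all 10 panels, and run 3 (triangles) holds the highest LAMP2 and TFRC values in most conditions.

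Under p31-43 the differences of these 10 genes from MED-CTL were of about the size seen over all probes. None of the 20 probes passed the study's threshold of a nominal p under 0.01, against 0.388% of all probes tested, and none passed an adjusted p < 0.05, against 0% of all probes. With run as a block 1 of the 20 passed the nominal threshold, against 1.38% of all probes, and with slide as a block 3 did, against 3.73%. In no probe were the 4 peptide arrays separate from the 4 control arrays, against 1.39% of all probes. Differences ran from -0.30 to 0.26, with a median of -0.049 over the 20 probes (-0.0011 over all probes), and 13 were below 0 and 7 above. The median size of the difference was 0.070, against 0.081 over all probes. In 19 of the 20 probes the 95% interval lay within a 2-fold change in either direction, and with run as a block it did so in all 20, and within 1.5-fold in 18. The widest interval was that of the brightest LAMP2 probe, from -1.11 to 0.82 on the log2 scale.

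**Figure D2:**
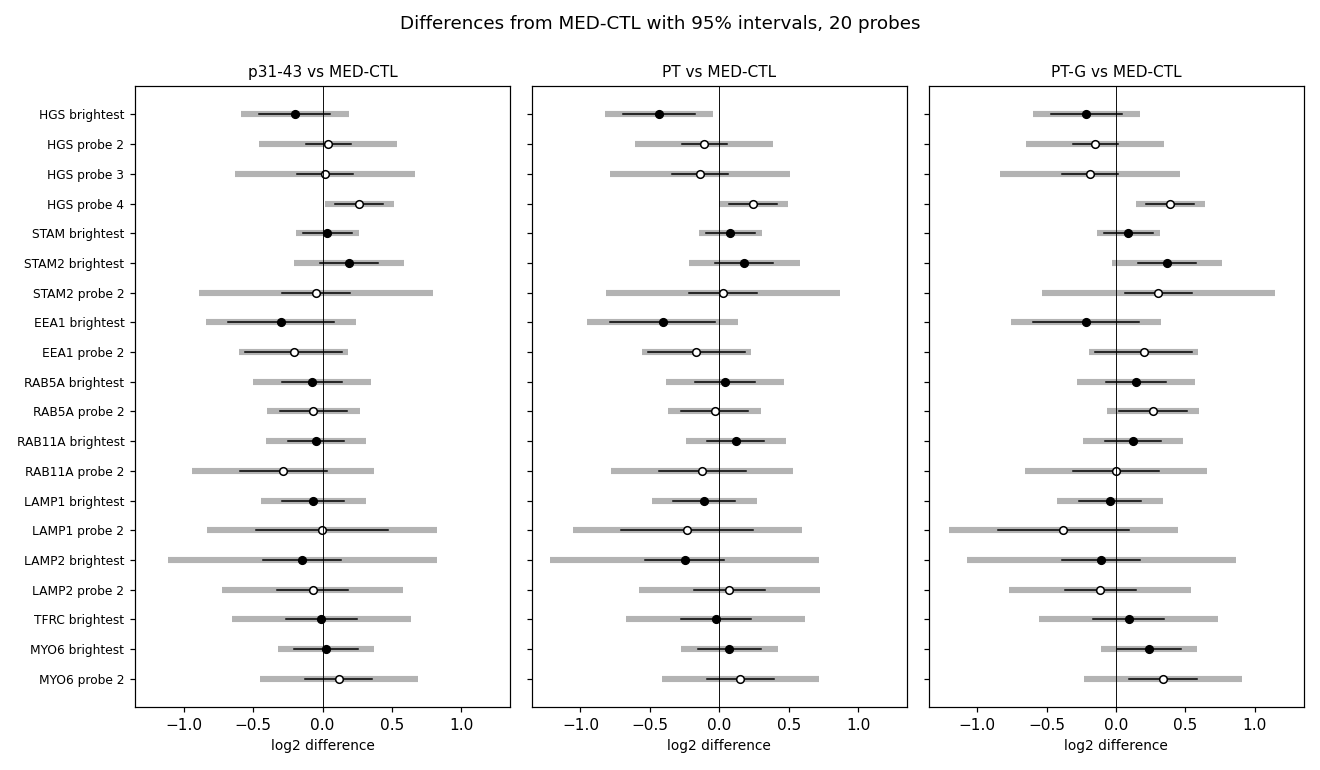
Log2 difference from MED-CTL for all 20 probes under p31-43, PT and PT-G (n = 4 arrays a group). Filled points are brightest probes and open points the others; grey bars are 95% intervals of the model without a block and black lines those with run as a block. Most intervals cross 0; the fourth HGS probe lies above 0 and the brightest HGS probe below 0 in all 3 panels.

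HGS, the larger subunit of ESCRT-0, gave probes that moved in opposite directions. On the brightest probe (A_23_P72627) the log2 intensity, in the order of runs 1 to 4, was 16.18, 15.94, 16.01 and 15.60 in MED-CTL, 15.94, 15.81, 15.52 and 15.66 under p31-43, 15.94, 15.74, 15.13 and 15.17 under PT, and 15.80, 15.82, 15.77 and 15.47 under PT-G. The highest value was in MED-CTL and the lowest in PT, and all groups overlapped. The difference from MED-CTL was -0.20 ± 0.18 (SE) under p31-43 (adjusted p = 1), -0.43 ± 0.18 under PT (adjusted p = 0.463) and -0.21 ± 0.18 under PT-G (adjusted p = 0.986), all from limma. PT was lower in all 4 runs, by -0.23, -0.20, -0.88 and -0.43, and PT-G was lower in all 4 runs, whereas p31-43 was lower in 3 of 4. With run as a block PT passed both thresholds (adjusted p = 0.0493), but the adjusted p was above 0.05 with slide (0.0592), the replicate number (0.0794) or early and late runs (0.0915) as the block. Without PT replicate 3 the PT difference was -0.31, and without PT replicate 1 it was -0.58 and passed the nominal threshold.

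The dimmest HGS probe (A_24_P937319), designed on the transcript AK097197, ran the other way. Its level was 8.04, 8.19, 7.89 and 8.41 in MED-CTL, 8.42, 8.21, 8.42 and 8.54 under p31-43, 8.32, 8.31, 8.35 and 8.52 under PT, and 8.40, 8.40, 8.53 and 8.76 under PT-G. Within every run each treatment was above its own control, although the control of run 4 overlapped the treated arrays of other runs. Under PT-G it rose by 0.39 ± 0.12, past the nominal threshold (adjusted p = 0.183), which was the only call among the 20 probes in any comparison of the model without a block. With run as a block it had an adjusted p = 0.0138, with slide 0.0111 and with the replicate number 0.015, but with early and late runs 0.073. It differed by 0.26 ± 0.12 under p31-43 (adjusted p = 1) and by 0.24 ± 0.12 under PT (adjusted p = 0.569), and with run as a block both passed the nominal threshold (adjusted p = 0.668 and 0.095). Without MED-CTL replicate 4 the p31-43 and PT differences were 0.36 and 0.34, and both passed the nominal threshold. The PT-G call was lost when 1 of 3 arrays was left out: the controls of run 1 (0.36) and run 3 (0.31) and PT-G of run 4 (0.31). The other 2 HGS probes differed by at most 0.04 under p31-43 and by -0.11 to -0.19 under the digests, with none past the threshold.

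**Figure D3:**
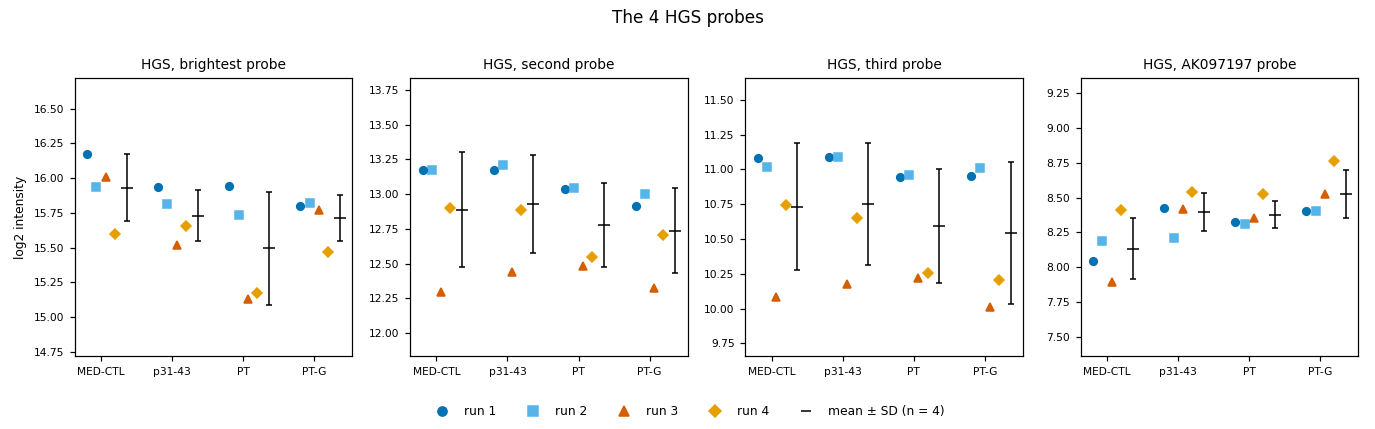
Normalised log2 intensity of the 4 HGS probes on every array by condition, with symbols for the runs and the mean ± SD (n = 4); panels span 2 log2 units. Treated arrays lie above the control of their own run on the AK097197 probe, and PT arrays lie below it on the brightest probe.

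The HGS probes lie apart on the gene. On the array's own map, whose build was not given in the sources used here, the AK097197 probe starts 3330 bases from the brightest one, and the others start 280 and 999 bases from it. What the probes measure on different HGS transcripts was not tested.

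STAM and STAM2 are the interchangeable partners of HGS. STAM was even across the conditions, with means of 11.16 ± 0.08 (SD, n = 4) in MED-CTL, 11.19 ± 0.24 under p31-43, 11.24 ± 0.14 under PT and 11.25 ± 0.08 under PT-G, and the largest difference was 0.089, under PT-G (adjusted p = 1). STAM2, on its brightest probe, read 9.36, 9.59, 10.30 and 9.70 in MED-CTL, 9.76, 9.80, 10.06 and 10.10 under p31-43, 9.72, 9.85, 10.17 and 9.94 under PT, and 9.81, 9.94, 10.37 and 10.30 under PT-G in runs 1 to 4. The control of run 3 was as high as the treated arrays, so the groups overlapped, but PT-G was above the control in all 4 runs, by 0.45, 0.35, 0.068 and 0.60. The PT-G difference of 0.37 ± 0.19 did not pass without a block (adjusted p = 0.693) and passed both thresholds with run as a block (adjusted p = 0.0453). The adjusted call was also made with slide as the block (adjusted p = 0.0326), but not with the replicate number (adjusted p = 0.0796) or early and late runs (adjusted p = 0.134). Without MED-CTL replicate 3 the difference was 0.56 and passed the nominal threshold without a block, and without MED-CTL replicate 2 it was 0.24. The second STAM2 probe was also higher under PT-G in 4 of 4 runs, by 0.30 ± 0.39 (adjusted p = 1, with run as a block adjusted p = 0.16). Under p31-43 the 2 probes differed in sign, at 0.19 ± 0.19 and -0.049 ± 0.39.

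EEA1 and RAB5A mark the early endosome. The brightest EEA1 probe read 13.66, 13.31, 14.23 and 13.03 in MED-CTL, 13.37, 13.07, 13.44 and 13.16 under p31-43, 13.50, 13.12, 13.07 and 12.91 under PT, and 13.24, 13.19, 13.998 and 12.94 under PT-G. All 3 treatment means lay below the control, by -0.30 ± 0.25 under p31-43 (adjusted p = 1), -0.41 ± 0.25 under PT (adjusted p = 0.729) and -0.22 ± 0.25 under PT-G (adjusted p = 1). None passed the threshold. The control of run 3 was the highest of the 16 arrays, and without this array, MED-CTL replicate 3, the 3 differences were -0.073, -0.18 and 0.010. That fit has no run term and keeps the treated arrays of run 3. Within runs, PT and PT-G were each below the control in 4 of 4 and p31-43 in 3 of 4. The PT-G differences in runs 1 to 4 were -0.42, -0.11, -0.24 and -0.092. With slide as a block the p31-43 difference was -0.38 and passed the nominal threshold (adjusted p = 0.251). The dimmer EEA1 probe was lower under p31-43 in 4 of 4 runs (-0.21 ± 0.18, adjusted p = 1) and higher under PT-G (0.20 ± 0.18), so the probes parted under PT-G. RAB5A differed by -0.076 ± 0.20 under p31-43, 0.042 ± 0.20 under PT and 0.14 ± 0.20 under PT-G on its brightest probe, and by -0.067 ± 0.16, -0.033 ± 0.16 and 0.27 ± 0.16 on the other; none passed.

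RAB11A and TFRC belong to the recycling route. RAB11A had means of 13.73 ± 0.27 (SD, n = 4) in MED-CTL, 13.68 ± 0.29 under p31-43, 13.85 ± 0.22 under PT and 13.85 ± 0.20 under PT-G, and the largest difference on this probe was 0.12, under PT-G (adjusted p = 1). Its dimmer probe was lower under p31-43 in all 4 runs (-0.28 ± 0.30, adjusted p = 1), and with slide as a block it passed the nominal threshold (adjusted p = 0.261). TFRC was printed on 10 spots of every array, and these spots had an SD of 0.12 to 0.29 within an array, against an SD of 0.41 between the 16 array means, which ran from 14.49 to 15.91. Its difference was -0.0080 ± 0.30 under p31-43, -0.024 ± 0.30 under PT and 0.090 ± 0.30 under PT-G (adjusted p = 1, 0.992 and 1). With run as a block the SE fell to 0.12, and no difference passed. Neighbouring conditions in the order PT-G, MED-CTL, p31-43, PT did not differ beyond their spread.

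LAMP1 and LAMP2 are the main glycoproteins of the lysosomal membrane. LAMP1 was the brightest of the 10 genes, with means of 17.15 ± 0.29 (SD, n = 4) in MED-CTL, 17.09 ± 0.31 under p31-43, 17.04 ± 0.09 under PT and 17.11 ± 0.29 under PT-G. On its dimmer probe the PT-G arrays read 12.47, 12.54, 12.65 and 10.92 in runs 1 to 4, the last being far below the others, and the difference of -0.38 ± 0.38 was not called (adjusted p = 1). The 2 LAMP2 probes read different splice forms, LAMP2B (the brighter) and LAMP2A, the form that serves chaperone-mediated autophagy. LAMP2B read 12.43, 12.21, 13.87 and 13.27 in MED-CTL and 12.22, 12.27, 13.76 and 12.94 under p31-43, a difference of -0.15 ± 0.45 (adjusted p = 1). The spread between runs was far larger than any difference between conditions. Both forms were lower under p31-43 in 3 of 4 runs, and neither passed a threshold in any comparison between conditions.

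MYO6, which moves vesicles away from the apical membrane, differed by 0.026 ± 0.16 under p31-43, 0.073 ± 0.16 under PT and 0.24 ± 0.16 under PT-G (adjusted p = 1, 0.942 and 0.907). Under PT-G it read 12.26, 12.38, 12.89 and 13.03 in runs 1 to 4, against 12.31, 12.26, 12.40 and 12.64 in MED-CTL. The highest value of the 16 was that of PT-G in run 4, and the PT-G difference was 0.11 without PT-G replicate 4 and 0.36 without PT-G replicate 1. The second MYO6 probe was higher under PT-G in 4 of 4 runs, by 0.34 ± 0.26 (adjusted p = 0.963), and passed the nominal threshold with slide as a block (adjusted p = 0.0782) but not with run (adjusted p = 0.111).

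At most 2 of the 20 probes were called under either digest without a block or with run as a block, and the shares were close to those of all probes. Under PT, 0 of the 20 probes passed the nominal threshold, against 3.64% of all probes, and 1 probe (brightest HGS) had a nominal p under 0.05, against 8.98%. With run as a block 2 probes passed, both of HGS and in opposite directions, against 10.3% of all probes, and 1 of them an adjusted p < 0.05, against 6.56%. Under PT-G 1 probe passed, the AK097197 probe, against 3.44% of all probes, and with run as a block 2 probes passed (this one and the brightest STAM2 probe), against 9.16%; both also had an adjusted p below 0.05, against 5.75% of all probes. In neither comparison did any of the 20 probes separate the groups, against 5.08% and 3.87% of all probes. Of the 20 probes, 9 had the same sign in all 4 runs under PT-G, 6 higher and 3 lower, against 28.9% of all probes. The same held for 4 probes under PT, against 24.8%, and for 3 under p31-43, against 17.1%. The median size of the difference was 0.12 under PT and 0.19 under PT-G, against 0.12 and 0.10 over all probes. These 3 comparisons share the MED-CTL arrays.

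PT-G against PT asks what gliadin adds to the enzyme digest. None of the 20 probes passed, against 0.0903% of all probes, and 0 passed an adjusted p < 0.05 in limma, against 0% of all probes; 0 had a nominal p under 0.05. The brightest probe of all 10 genes was nonetheless higher under PT-G than under PT, and 16 of the 20 probes were, with a median of 0.13 against 0.0069 over all probes. The values ran from 0.0052 for RAB11A to 0.22 for HGS among the brightest probes, with SEs of 0.11 to 0.45. The sign depended on the block: with slide as a block STAM, RAB11A, LAMP1, LAMP2 and TFRC were below 0. For 6 of the 10 genes the difference was largest in run 3, where PT is the array that stood apart. That array lay on another slide than PT-G of run 3. The difference in run 3 was 0.64 for HGS, 0.93 for EEA1 and 0.64 for LAMP2. Without PT replicate 3 the differences of group means for these 3 genes were 0.097, 0.17 and 0.28, from 0.22, 0.19 and 0.14. Those fits kept PT-G of run 3 and have no run term. Within runs 1, 2 and 4 the differences were -0.14, 0.084 and 0.29 for HGS. They were -0.26, 0.074 and 0.026 for EEA1, and -0.18, 0.13 and -0.012 for LAMP2.

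Between p31-43 and the mean of both digests, 0 of the 20 probes passed, against 4.58% of all probes, and no brightest probe differed by more than 0.17. With slide as a block 2 probes passed, against 13.3% of all probes: the second HGS probe was higher under the peptide (0.24, adjusted p = 0.0285) and the dimmer RAB11A probe lower (-0.30, adjusted p = 0.0221).

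The level of most of these genes varied more between runs than between treatments. Over the 20 probes a median of 71.7% of the sum of squares lay between runs and 9.05% between conditions, against 44.8% and 14.8% over all probes, and the run share was the larger in 18 of 20. All 20 were well above background on every array, whereas only 24812 of all probes were. The shares were not compared at like brightness. The later runs 3 and 4 were then set against runs 1 and 2, a comparison added after the data had been seen; it has only 2 runs a side, the slides and scans differ with it, and these cannot be told apart from the cells. With condition in the model and run as a random block, 8 of 20 probes had an adjusted p < 0.05, against 11.1% of all probes, and in 6 of 20 the 8 later and 8 earlier arrays did not overlap, against 6.27% of all probes. This model uses the same within-run correlation, 0.299, for every probe. Its p values may be too small for probes whose arrays within a run are more alike than that.

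LAMP2, STAM2 and HGS each gave 2 of these 8 probes, and RAB5A and MYO6 gave 1 each. LAMP2B rose from 12.27 ± 0.09 (SD, n = 8 arrays of 2 runs) to 13.36 ± 0.37, a difference of 1.09 ± 0.17 (adjusted p = 0.00177), and LAMP2A by 0.70 ± 0.15 (adjusted p = 0.00864). STAM2 was higher by 0.39 ± 0.11 on the brightest probe (adjusted p = 0.0431) and by 0.97 ± 0.13 on the other (adjusted p = 0.00086), while 2 HGS probes were lower, by -0.52 ± 0.11 and -0.73 ± 0.12 (adjusted p = 0.00795 and 0.0022). The AK097197 probe of HGS was at 0.14 ± 0.10 (adjusted p = 0.449), and the brightest HGS probe was at -0.35 ± 0.13 (adjusted p = 0.106). MYO6 was higher by 0.34 ± 0.11 (adjusted p = 0.0703) and 0.64 ± 0.12 (adjusted p = 0.00503). RAB5A (0.40 ± 0.12), RAB11A (0.32 ± 0.11) and TFRC (0.52 ± 0.19) were higher on their brightest probes with adjusted p values of 0.05, 0.0997 and 0.101, of which that of RAB5A lay just under the threshold before rounding. EEA1, LAMP1 and STAM differed by 0.039 ± 0.23, -0.025 ± 0.15 and 0.14 ± 0.09, without a call.

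**Figure D4:**
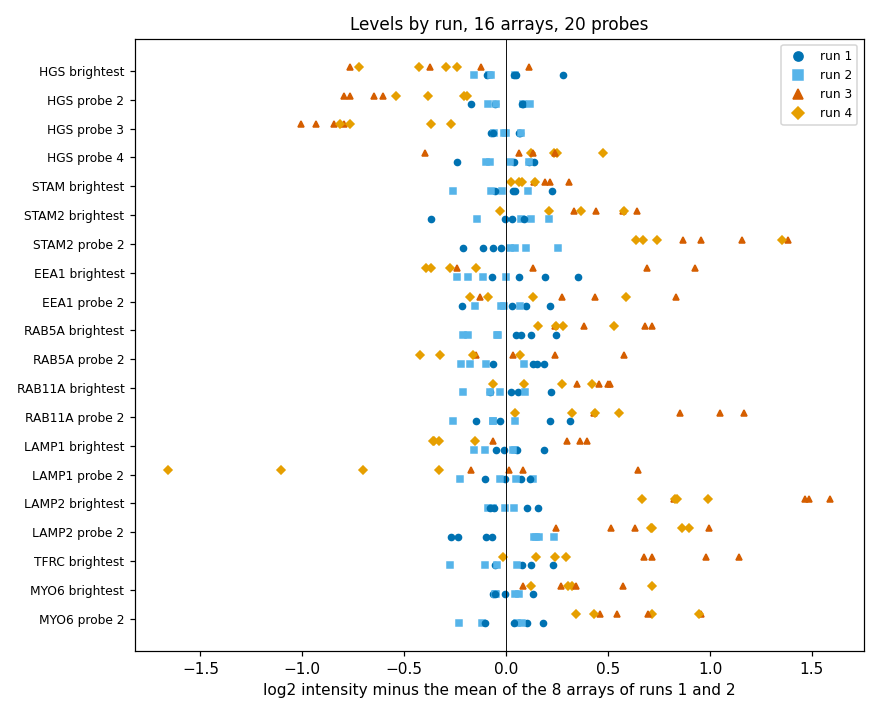
Log2 intensity of the 20 probes on all 16 arrays relative to the mean of the 8 arrays of runs 1 and 2 (x axis, log2 units); symbols and colours mark the run, with runs 3 and 4 drawn above runs 1 and 2 in each row. Both LAMP2 probes, the second STAM2 probe and the second MYO6 probe lie to the right of the earlier runs on every later array, and the second and the third HGS probe to the left.

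The wider endosomal machinery was read from 8 lists that hold 203 genes found on the array, each by its brightest probe. Under p31-43 none of them passed the nominal threshold, against 0.388% of all probes, and their median difference was -0.0088. Under PT 9 passed (4.43%, against 3.64% of all probes), 6 higher and 3 lower, and under PT-G 10 passed (4.93%, against 3.44%), 7 higher and 3 lower. An adjusted p < 0.05 was reached by 3 under PT (1.48%, against 0.82% of all probes) and 2 under PT-G (0.985%, against 0.944%), all higher. With run as a block it was reached by 17 under PT (9 higher and 8 lower; 8.37%, against 6.56%) and 16 under PT-G (10 higher and 6 lower; 7.88%, against 5.75%). The genes named below have 19 calls between them in the model without a block, of which 9 held whichever of the 16 arrays was left out and 10 did not. Ranges beside a lost call are over all 16 of these fits.

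In the list on EGF receptor ubiquitination and degradation 1 of 15 genes rose under each digest, ERRFI1, an inhibitor of the EGF receptor kinase. It rose by 1.01 ± 0.13 under PT (adjusted p = 0.00239) and by 1.08 ± 0.13 under PT-G (adjusted p = 0.00136), with all treated arrays above all controls, and differed by -0.061 ± 0.13 under p31-43 (adjusted p = 1). Among 27 genes of early endosome fusion, RAB31, a GTPase of the RAB5 family, rose under PT by 0.66 ± 0.13 (adjusted p = 0.0315) and under PT-G by 0.48 ± 0.13 (adjusted p = 0.135), and ANKFY1, a RAB5 effector, fell under PT (-0.30 ± 0.09, adjusted p = 0.174). The RAB31 call under PT-G was lost without PT-G replicate 4 (0.42), and the ANKFY1 call without any 1 of 4 arrays (-0.35 to -0.26). Of 25 recycling genes only RAB11FIP5, a RAB11 partner, passed, at 0.70 ± 0.14 under PT (adjusted p = 0.0366) and 0.46 ± 0.14 under PT-G (adjusted p = 0.211), where it was lost without any 1 of 4 arrays (0.34 to 0.54).

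Among 33 ESCRT and related sorting genes 1 passed upward and 1 downward under each digest: VPS37B of ESCRT-I at 0.79 ± 0.18 under PT and 0.77 ± 0.18 under PT-G (adjusted p = 0.0605 and 0.0707), and CHMP6 of ESCRT-III at -0.39 ± 0.13 and -0.49 ± 0.13 (adjusted p = 0.261 and 0.118). The CHMP6 call under PT was lost in 14 of the 16 fits with 1 array left out (-0.49 to -0.27). In the clathrin list of 30 genes HIP1 passed under PT (0.39 ± 0.13, adjusted p = 0.257), and HIP1R (0.72 ± 0.21, adjusted p = 0.183) and EPN2 (0.38 ± 0.12, adjusted p = 0.214) under PT-G; all 3 encode clathrin adaptors or their actin links. With 1 array left out at a time, the HIP1 call was lost in 9 of 16 fits (0.33 to 0.47), the HIP1R call in 4 (0.63 to 0.79) and the EPN2 call in 4 (0.30 to 0.44). The sorting receptor SORL1 was the only call among 19 retromer genes, lower under PT-G (-0.47 ± 0.15, adjusted p = 0.248) and lost in 7 of those 16 fits (-0.58 to -0.33). CYBRD1, a duodenal ferric reductase, was the only call among 15 genes of iron handling, higher under PT-G by 0.53 ± 0.11 (adjusted p = 0.0326).

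**Figure D5:**
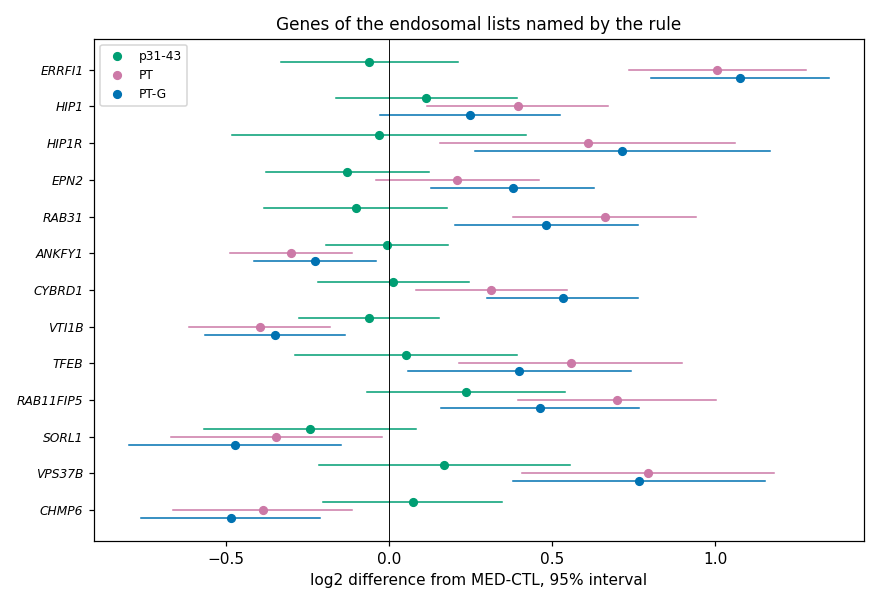
Log2 difference from MED-CTL (x axis) with its 95% interval for the 13 genes of the 8 lists with a nominal p under 0.01, at most 3 a list and comparison, under p31-43, PT and PT-G (n = 4 arrays a group). PT and PT-G values lie on the same side of 0 for every gene, and no p31-43 interval reaches the value of ERRFI1 under the digests.

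Of 39 late endosomal and lysosomal genes 1 rose under PT, TFEB, the transcription factor of lysosomal genes (0.56 ± 0.16, adjusted p = 0.165, with run as a block adjusted p = 0.00726). Its nominal call was lost without PT replicate 2 (0.51) or MED-CTL replicate 3 (0.44). It differed by 0.40 ± 0.16 under PT-G (adjusted p = 0.467) and by 0.051 ± 0.16 under p31-43. VTI1B, a SNARE of late endosome fusion, fell under PT (-0.40 ± 0.10, adjusted p = 0.0999) and under PT-G (-0.35 ± 0.10, adjusted p = 0.163), the latter call being lost when any 1 of 5 arrays was left out (-0.46 to -0.31). TFEB is known to bind letters built around CACGTG, so the RefSeq promoters (250 bases before to 50 after the start site, GRCh38.p14) of the endosomal genes were searched on both strands (9 of the 10 were in the table, which has no entry for LAMP2), the motifs being their own reverse complements. CACGTG occurred in 2 of the 9, those of LAMP1 and RAB5A, against 7.26% of 35116 promoters, and the longer TCACGTGA, which contains it, occurred in the same 2, against 0.98%. They are shown because they set TFEB beside genes that carry these letters; capitals mark CACGTG or, where present, TCACGTGA.
LAMP1, chr13:113296989-113297288, + strand: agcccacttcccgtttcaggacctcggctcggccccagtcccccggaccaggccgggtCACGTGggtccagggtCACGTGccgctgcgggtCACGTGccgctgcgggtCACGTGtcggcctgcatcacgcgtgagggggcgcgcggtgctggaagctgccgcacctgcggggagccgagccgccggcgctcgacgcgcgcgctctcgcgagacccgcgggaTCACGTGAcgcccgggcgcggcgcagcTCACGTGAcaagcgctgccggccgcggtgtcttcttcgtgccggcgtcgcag
RAB5A, chr3:19946847-19947146, + strand: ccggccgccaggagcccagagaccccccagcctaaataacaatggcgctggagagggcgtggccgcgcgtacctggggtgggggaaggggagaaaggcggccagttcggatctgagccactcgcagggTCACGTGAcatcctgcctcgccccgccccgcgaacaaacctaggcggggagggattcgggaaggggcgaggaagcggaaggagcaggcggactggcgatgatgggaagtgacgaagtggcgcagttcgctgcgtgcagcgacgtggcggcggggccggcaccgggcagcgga
The LAMP1 window held 6 copies of CACGTG, 2 of them within TCACGTGA, and RAB5A held 1. Under PT LAMP1 differed by -0.11 ± 0.18 (adjusted p = 0.912) and RAB5A by 0.042 ± 0.20 (adjusted p = 0.977). A match in letters is not a binding site.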

How the data were processed

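Total RNA of Caco-2 cells was hybridised on 16 one-colour arrays, 4 a group. The deposited scanner files, made per the file headers with Agilent Feature Extraction 9.5.3.1, give the median foreground intensity of 45015 spots, 1639 of them controls. The deposited log2 table equals quantile-normalised log2 intensity over all spots to within 5e-09. The methods name limma on quantile-normalised median intensity without background correction and a nominal p under 0.01, which was followed here in R 4.3.3 with limma 3.58.1. The probe filtering and re-annotation that the methods also name were not repeated here. Spots marked as outliers (0.256%) were left out, spots of a probe were averaged, and probes needed 3 unmarked arrays in every group, which left out 18 of 41000. A single model of the 4 conditions, without a block, gave all differences (12 residual degrees of freedom). Adjusted p values are Benjamini-Hochberg over all 40982 probes, and p is 2-sided. In these experiments p values rest on 4 separate cultures a group. The number of arrays limits the precision: the 95% interval of a difference from MED-CTL had a median half-width of 0.46 over the 20 probes.

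Every probe of the 10 genes is named, led by the brightest, and from each list up to 3 genes of smallest nominal p below 0.01 in each comparison with MED-CTL. Members and lists were chosen with earlier results of these data known. Gene names are those of the array files, of which 203 of 204 listed names were found. The pairing of samples was checked by correlating the deviations of arrays with those of MED-CTL. For same-numbered arrays the correlations were 0.26 to 0.71 in p31-43, 0.40 to 0.86 in PT-G and -0.0054 to 0.41 in PT. For arrays of the same run they were 0.54 to 0.71, 0.63 to 0.86 and -0.0054 to 0.62. In PT the lowest was that of run 3, and runs 1, 2 and 4 gave 0.375, 0.62 and 0.41. Run, taken from array names, was used as a block because it holds all 4 conditions. Background correction, scaling, dim-probe filter, marked spots, blocks, the samples fitted and single arrays were varied. Fits with 1 array left out have no run term, so the runs are unbalanced in them. The model was also run on simulated arrays. With a log2 change of 0.5, 121 of 200 changed probes passed the nominal threshold, and 1.06% of unchanged ones did. The simulated noise was independent between arrays, without runs, so it cannot show how the model behaves with differences between runs.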

Additional observations from a re-analysis of the deposited data

Results flagged for a closer look

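In 40 sets of 4 arrays (10 brightest probes in 4 conditions) an array that lay far from the other 3 was looked for. The measure was its gap to the nearest array over the whole range, at a level where chance gives about 1 in 20. Such an array was found in 2 of the 40 sets, about the number that chance gives at that level. For HGS under PT-G, replicate 4 read 15.47 against 15.77 to 15.82 in the other arrays (gap ratio 0.856). For RAB11A in MED-CTL, replicate 3 read 14.13 against 13.56 to 13.65 (gap ratio 0.843).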

How the results depend on the processing

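Counts over all probes with a nominal p under 0.01 rose with every block and moved with other settings too. In the order p31-43, PT and PT-G against MED-CTL, PT-G against PT and p31-43 against the mean of the digests, the count over all probes was 567, 4217, 3755, 130 and 4512 with run as a block, 432, 3481, 3110, 95 and 3859 with the replicate number as a block, 1527, 4333, 5011, 149 and 5463 with slide and 322, 2483, 2397, 76 and 3012 with early and late runs, from 159, 1491, 1408, 37 and 1877. Of the 20 endosomal probes 1, 2 and 2 passed against MED-CTL with run or with the replicate number as a block, 3, 1 and 3 with slide (2 in p31-43 against the digests), 1 (PT) and 3 (PT-G) with early and late runs, from 0, 0 and 1; genes of the 8 lists numbered 2, 29 and 23 with run, 1, 22 and 23 with the replicate number, 7, 23 and 28 with slide and 1, 17 and 20 with early and late runs, from 0, 9 and 10. Fitting only the groups compared gave 82 (p31-43), 889 (PT-G) and 14 (PT-G against PT) probes, median scaling 291 (p31-43) and 8 (PT-G against PT), the dim-probe filter 82 and 2. The PT-G call of the AK097197 probe of HGS was lost (count 0) with background-subtracted signal, median scaling or only the groups compared; background subtraction left 1, 4 and 6 list genes and median scaling 1 under p31-43.

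Leaving out 1 array at a time gave 88 to 329 probes in p31-43 against MED-CTL (without MED-CTL replicates 2 and 4) and 27 to 84 in PT-G against PT (without PT-G replicate 4 and PT replicate 1), 5 to 11 list genes under PT-G (5 without PT-G replicate 2), and 0 to 1 of the 20 probes against MED-CTL; 0 to 1 list genes passed under p31-43. No called value changed sign; uncalled ones ranged over -0.050 to 0.14 (STAM), -0.20 to 0.094 (RAB5A), -0.18 to 0.084 (RAB11A), -0.21 to 0.033 (LAMP1), -0.47 to 0.16 (LAMP2), -0.31 to 0.16 (TFRC) and -0.038 to 0.10 (MYO6) in p31-43 against MED-CTL, -0.079 to 0.21 (RAB5A), -0.49 to 0.058 (LAMP2) and -0.19 to 0.12 (TFRC) in PT against MED-CTL, -0.43 to 0.010 (EEA1), -0.18 to 0.074 (LAMP1), -0.41 to 0.20 (LAMP2) and -0.12 to 0.23 (TFRC) in PT-G against MED-CTL, -0.048 to 0.052 (STAM), -0.025 to 0.33 (EEA1), -0.029 to 0.22 (RAB5A), -0.097 to 0.069 (RAB11A), -0.056 to 0.18 (LAMP1), -0.16 to 0.36 (LAMP2) and -0.10 to 0.28 (TFRC) in PT-G against PT, -0.13 to 0.056 (STAM), -0.054 to 0.12 (EEA1), -0.13 to 0.11 (LAMP1), -0.29 to 0.23 (LAMP2) and -0.34 to 0.13 (TFRC) in p31-43 against the digests.

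Signs of differences near 0, none of them called, turned under some settings. With background-subtracted signal the difference was -0.00039 (STAM) in p31-43 against MED-CTL, and -0.055 (EEA1), -0.12 (LAMP1) and -0.0090 (LAMP2) in p31-43 against the digests. With median scaling the difference was 0.029 (RAB5A), 0.023 (RAB11A) and 0.029 (TFRC) in p31-43 against MED-CTL, and 0.013 (TFRC) in PT against MED-CTL, and 0.0056 (STAM) and -0.056 (LAMP1) in p31-43 against the digests. With slide as a block the difference was 0.032 (LAMP1) and 0.10 (TFRC) in PT against MED-CTL, and -0.0073 (STAM), -0.074 (RAB11A), -0.075 (LAMP1), -0.046 (LAMP2) and -0.013 (TFRC) in PT-G against PT, and -0.15 (EEA1), -0.093 (LAMP1) and -0.036 (LAMP2) in p31-43 against the digests. With normexp the difference was -0.0015 (RAB11A) in PT-G against PT, and -0.0058 (EEA1) in p31-43 against the digests. The causes were not tested.

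Each group had 4 arrays, with intervals of a difference from MED-CTL of 0.23 to 0.97 log2 units on either side, so changes smaller than this could not be told from 0 without the run block; and all values are RNA levels, with no measure of protein or of vesicles.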
